A study of Mus musculus with 3 samples.

Results

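The genes of the platelet-derived growth factor (PDGF) family were followed through single-cell RNA-seq libraries of mouse aorta. The 6 genes were taken by their symbols from the 32285 genes of the count matrices, and they are the receptors Pdgfra and Pdgfrb and the ligands Pdgfa, Pdgfb, Pdgfc and Pdgfd. All 6 were detected in every library. The cells kept held 13610 unique molecular identifiers (UMIs, each marking 1 captured transcript) of Pdgfra, 30113 of Pdgfrb, 80784 of Pdgfa, 3599 of Pdgfb, 11336 of Pdgfc and 82265 of Pdgfd.

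In these mice the endogenous Apoe locus held a human gene, APOE2, APOE3 or APOE4, on a C57BL/6J backcross. All were males that received a Western diet with 42% fat and 0.2% cholesterol for 16 weeks, starting at 12 weeks of age. Aortas from the arch down to the iliac bifurcation were digested, and the cells of 6 APOE2 mice, 5 APOE3 mice and 7 APOE4 mice were pooled by genotype, so that each genotype is 1 droplet library. The comparisons ask how the apoE isoform relates to gene expression in each cell type of the vessel wall, but the isoform and the library (its pool of mice, its digestion and its sequencing) cannot be told apart. No test and no p-value was computed, and every interval given covers counting error only.

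PDGF ligands are dimers that bring receptor chains together on the cell surface, and the paired receptors, which are tyrosine kinases, then drive growth, survival and migration. PDGF-A and PDGF-C act mainly through PDGFRα, PDGF-B acts through both receptors, and PDGF-D acts mainly through PDGFRβ. PDGF-C and PDGF-D are made as latent proteins and become active once a protease removes their CUB domain. In arteries, PDGFRα is known as a receptor of fibroblasts and other mesenchymal cells and PDGFRβ as a receptor of smooth muscle cells and pericytes, whereas PDGF-B is known from endothelial cells, platelets and macrophages. PDGF-B and PDGF-D are studied in atherosclerosis for their action on smooth muscle cells.

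The genes lie on 5 chromosomes of the GRCm38 (mm10) build that the counts use. By the GENCODE vM21 annotation, Pdgfra spans chr5:75152292-75198215 on the plus strand and Pdgfa spans chr5:138976014-138997370 on the minus strand of the same chromosome. Pdgfb spans chr15:79995874-80014977 on the minus strand. The 2 CUB-domain ligands are the longest genes of the family, with Pdgfc at chr3:81036416-81214040 and Pdgfd at chr9:6168584-6378850, both on the plus strand. UMI counts are per gene and do not separate the transcripts or exons of a gene.

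The sequences just upstream of Pdgfc and Pdgfd are shown because these are the ligands whose smooth muscle levels are described below and whose upstream windows in the RefSeq table (GRCm38.p6) overlapped no exon. Each is the 250 bases before the RefSeq start of the gene, on the plus strand, written 5′ to 3′. The Pdgfc window is chr3:81036166-81036415 and the Pdgfd window is chr9:6168236-6168485. Capitals mark a CArG box, the element read by serum response factor, in Pdgfc and the TATA-box letters TATAAA in Pdgfd.
Pdgfc: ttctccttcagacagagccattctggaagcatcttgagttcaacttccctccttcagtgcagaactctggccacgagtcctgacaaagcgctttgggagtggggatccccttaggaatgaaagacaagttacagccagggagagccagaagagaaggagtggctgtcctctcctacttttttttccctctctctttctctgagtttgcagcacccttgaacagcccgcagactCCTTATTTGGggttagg
Pdgfd: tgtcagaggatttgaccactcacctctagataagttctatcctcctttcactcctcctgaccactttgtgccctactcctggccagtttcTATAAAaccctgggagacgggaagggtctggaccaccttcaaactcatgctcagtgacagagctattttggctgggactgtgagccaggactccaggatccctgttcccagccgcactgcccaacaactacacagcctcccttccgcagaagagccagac
Of 32851 such windows, searched on both strands, 1.47% held the CArG box, 12.4% held TATAAA and 32.7% held GGGCGG, the core of a GC box, which neither window held. A match of letters is a description of the window and not evidence that a factor binds there.

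Cells were kept when they had at least 200 genes and under 20% mitochondrial UMIs, and the libraries then held 11772 APOE2 cells, 6737 APOE3 cells and 8248 APOE4 cells, with 168310501, 125105151 and 124926887 UMIs. The APOE3 library was the deepest per cell, with a median of 17618 UMIs against 12047 in APOE2 and 13521.5 in APOE4. Cell classes were clusters named from lists of marker genes after the 6 PDGF genes had been removed, so that no level below was used to draw its own class. The smooth muscle class held 6731 APOE2, 4000 APOE3 and 5073 APOE4 cells, the fibroblast class 1323, 785 and 1114, the endothelial class 467, 132 and 101, and the macrophage class 339, 94 and 125. No cluster met the rule for pericytes, and 2557, 1658 and 1421 cells stayed unnamed. Between 14 and 27 barcodes were shared by any pair of libraries. Levels are counts per 1000000 UMIs (CPM), that is, the UMIs of a gene summed over the cells of a class and scaled by all UMIs of those cells, with an exact Poisson 95% interval. The mouse Apoe sequence of mm10 gathered 191, 200 and 181 CPM in the APOE2, APOE3 and APOE4 libraries, and these counts do not tell the human alleles apart.

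The endothelial class was not pure. It held 10626 Acta2 CPM and 3922 Dcn CPM, from genes that mark smooth muscle cells and fibroblasts, and 27.7% of its cells were among the highest Scrublet (doublet) scores. At a finer clustering, 206 endothelial cells (140 APOE2, 32 APOE3 and 34 APOE4) held 3031 Acta2 and 601 Dcn CPM with 3.40% high scores, and their values are given beside those of the class. The T lymphocyte class was mixed too. It held Csf1r at 75.8 CPM, against 511 in macrophages and 2.51 in B lymphocytes, and Acta2 at 16.0% of its smooth muscle level. It had 197 APOE2, 42 APOE3 and 111 APOE4 cells, against 114, 15 and 100 at the finer clustering. The part of other cells in T lymphocyte levels was not tested.

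In what follows, levels are compared between classes and between libraries within a gene and never between genes. Neighbouring classes in the order of levels are said to differ only where their intervals stand apart.

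Pdgfra was highest in fibroblasts. Over the 3 libraries its level was 289 CPM (283 to 294) in fibroblasts, 83.0 (74.7 to 92.0) in the mixed endothelial class, 5.53 in macrophages and 4.42 in smooth muscle cells, and it was listed at 0 in neutrophils. The classes from the third place down had overlapping intervals. Fibroblasts made up 12.0% of cells and 8.54% of UMIs and held 75.8% of Pdgfra UMIs.

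The endothelial class held Pdgfra and fibroblast transcripts at a like share of their fibroblast levels. Pdgfra stood at 28.7% of its fibroblast level there and Dcn at 27.5%, and in the 206 endothelial cells of the finer clustering Pdgfra fell to 6.06 CPM. The smooth muscle level of Pdgfra was 1.53% of the fibroblast level, against 0.160% for Dcn.

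With every cell thinned to 1000 UMIs, a Pdgfra UMI was present in 25.6% of APOE2 fibroblasts (334 of 1303), 28.9% of APOE3 fibroblasts (218 of 754) and 26.0% of APOE4 fibroblasts (284 of 1091). The same shares were 0.598%, 0.225% and 0.416% in smooth muscle cells, while in macrophages they were 0 in APOE2, which allows up to 0.885%, 0 in APOE3, which allows up to 3.19%, and 1.61% in APOE4 (2 of 124). Without thinning, at median depths of 9834 UMIs in fibroblasts and 16124.5 in smooth muscle cells, 82.2%, 86.8% and 81.1% of fibroblasts had a Pdgfra UMI, and 7.13%, 8.08% and 5.91% of smooth muscle cells. The thinning left out 20, 31 and 23 fibroblasts and 39, 8 and 24 smooth muscle cells that were shallower.

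Pdgfrb (chr18:61045150-61085061 on the plus strand) was spread over the whole vessel wall. Its level was 114 CPM (110 to 117) in fibroblasts, 77.1 (69.1 to 85.7) in the endothelial class and 66.5 (65.5 to 67.4) in smooth muscle cells, with no overlap between these intervals. T lymphocytes at 22.0 and macrophages at 20.5 followed and did not differ beyond their intervals. These are pooled values. By library, the endothelial and smooth muscle intervals overlapped in APOE2 (72.1 and 64.5) and in APOE4 (78.2 and 70.9). Those of fibroblasts (130) and the endothelial class (100) overlapped in APOE3. Smooth muscle cells, with 59.1% of all cells and 67.4% of all UMIs, held 62.3% of Pdgfrb UMIs, and fibroblasts held 13.5%.

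The endothelial value of Pdgfrb was 38.4 CPM in the 206 cells of the finer clustering, which is below the smooth muscle level of 66.5. In macrophages, Pdgfrb stood at 30.8% of its smooth muscle level while Acta2 stood at 13.8% of its own. The part of smooth muscle transcripts in this macrophage value was not tested.

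Fibroblasts were the class with high levels of both receptor transcripts. At 1000 UMIs per cell, both were seen in 37 APOE2, 33 APOE3 and 40 APOE4 fibroblasts, against 31.5, 29.5 and 30.5 cells from the product of the separate shares. At 3000 UMIs per cell the counts were 188, 127 and 132 against 177, 121 and 134, so that the observed count was below the product in APOE4.

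The receptors also differed among fibroblast clusters. Cluster 4, led by Inmt and Fmod, held Pdgfra at 349 CPM and Pdgfrb at 145, cluster 7, led by Pi16, C3 and Ly6c1, at 243 and 87.9, and cluster 14, led by Clec3b and Ly6a and of low depth, at 183 and 70.5. Both receptors thus had the same order over the 3 clusters. Pdgfa and Pdgfc did not share it. Pdgfa was highest in cluster 14 (119 CPM, against 51.6 in cluster 4 and 48.3 in cluster 7) and Pdgfc was lowest in cluster 4 (6.89, against 18.0 and 14.1). Cluster 14 also held Acta2 at 47.3% of its smooth muscle level, against 9.77% in cluster 4 and 8.27% in cluster 7. High Scrublet scores marked 17.8% of its cells. Its Pdgfa stood at 57.8% of the smooth muscle level, and the part of smooth muscle transcripts in that value was not tested. Pdgfd followed the receptors, at 156 in cluster 4, 136 in cluster 7 and 100 in cluster 14.

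Between libraries, fibroblast Pdgfra was 269 CPM in APOE2, 324 in APOE3 and 288 in APOE4, and fibroblast Pdgfrb was 106, 130 and 111. Both receptors were highest in the APOE3 library. On the log2 scale APOE2 differed from APOE3 by -0.27 (-0.34 to -0.20) for Pdgfra and -0.30 (-0.41 to -0.19) for Pdgfrb, and APOE4 differed from APOE3 by -0.17 (-0.24 to -0.10) and -0.23 (-0.34 to -0.11). None reached the 1.5-fold difference that is read as a call here, though the intervals leave out 0. Each of the 3 fibroblast clusters had less Pdgfra and less Pdgfrb in APOE2 than in APOE3. APOE4 was below APOE3 in clusters 4 and 7 for both receptors but not in cluster 14, where Pdgfra was 248 CPM in APOE4 and 170 in APOE3, a log2 ratio of 0.54 (0.23 to 0.85), and Pdgfrb was 83.0 and 79.8. Clusters of a library share its cells' preparation and are not replicates.

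In smooth muscle cells, Pdgfrb varied little, at 64.5 CPM in APOE2, 64.3 in APOE3 and 70.9 in APOE4. The log2 ratio of APOE4 to APOE3 was 0.14 (0.09 to 0.19) and that of APOE2 to APOE3 was 0.00. The low Pdgfra level of smooth muscle cells was 5.31, 4.18 and 3.62 CPM, with a log2 ratio of APOE2 to APOE3 of 0.34 (0.15 to 0.54). The 10 fibroblast markers summed to 1164, 1421 and 1401 CPM in the smooth muscle cells of the same libraries. The part of fibroblast transcripts in the Pdgfra level of smooth muscle cells was not tested. Cluster 3, which holds 2273 of its 3353 cells from APOE2, had the highest Pdgfra of the 5 smooth muscle clusters, at 7.38 CPM.

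Pdgfa was highest in smooth muscle cells. Its level was 206 CPM (205 to 208) there, 151 (140 to 163) in the endothelial class, 82.6 (75.8 to 89.8) in macrophages, 55.9 (53.5 to 58.4) in fibroblasts and 48.4 in T lymphocytes. Only the last pair overlapped in these pooled values. By library, APOE3 fibroblasts (69.3) ranked above macrophages (59.8) with overlapping intervals. In APOE4 the smooth muscle (194) and endothelial (182) intervals overlapped. Smooth muscle cells held 72% of all Pdgfa UMIs. The endothelial value stayed at 153 in the finer clustering. Macrophages stood at 40.0% of the smooth muscle level of Pdgfa, against 13.8% for Acta2.

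Among smooth muscle clusters, Pdgfa was 222, 216 and 211 CPM in clusters 0, 1 and 2, and lower in cluster 3 (163), led by Tnnt2, and cluster 11 (121). Cluster 1 is led by stress genes such as Dnajb1 and Atf3, and its Pdgfa level lay between those of clusters 0 and 2.

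Between libraries, smooth muscle Pdgfa was highest in APOE3, by less than 1.5-fold. It was 186 CPM in APOE2, 244 in APOE3 and 194 in APOE4. The log2 ratio was -0.40 (-0.43 to -0.37) for APOE2 to APOE3 and -0.33 (-0.36 to -0.31) for APOE4 to APOE3. APOE3 was also the library with the most UMIs per cell. At an equal 1000 UMIs per cell, the share of cells with a Pdgfa UMI had the same order, at 16.0%, 20.6% and 18.0%, where 2.92%, 6.50% and 4.77% of fibroblasts had one.

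APOE3 was highest for Pdgfa in smooth muscle cells of different regions of the aorta, while the order of APOE2 and APOE4 varied. Smooth muscle cells were split, after the data were seen, by at least 2 UMIs of Hoxa5, Hoxa7, Hoxb6, Hoxb7 and Hoxc6, genes of the descending aorta, or of Hand2, a gene of the arch. Cells with the Hox genes only held 197, 256 and 204 Pdgfa CPM in APOE2, APOE3 and APOE4. Cells with Hand2 only held 181, 240 and 181, cells with neither held 181, 234 and 186, and the few cells with both held 208, 261 and 197. In APOE2, APOE3 and APOE4, cells with the Hox genes only numbered 1414, 1447 and 2149, and cells with Hand2 only 1824, 783 and 504. The part of this mix in the class ratios was not tested. Median depth was 17264 UMIs with the Hox genes only, 18752 with Hand2 only, 14053.5 with neither and 29831 with both. APOE3 was above APOE2 in each of the 5 smooth muscle clusters and above APOE4 in 4 of them, the exception being cluster 11, where Pdgfa was 88.6, 123 and 156. Fibroblast Pdgfa was also highest in APOE3, at 47.5, 69.3 and 56.9 CPM. APOE2 differed from APOE3 by -0.55 (-0.70 to -0.39) on the log2 scale, which turned to 0.73 when cells were classed by their own marker UMIs in place of clusters.

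**Figure D1:**
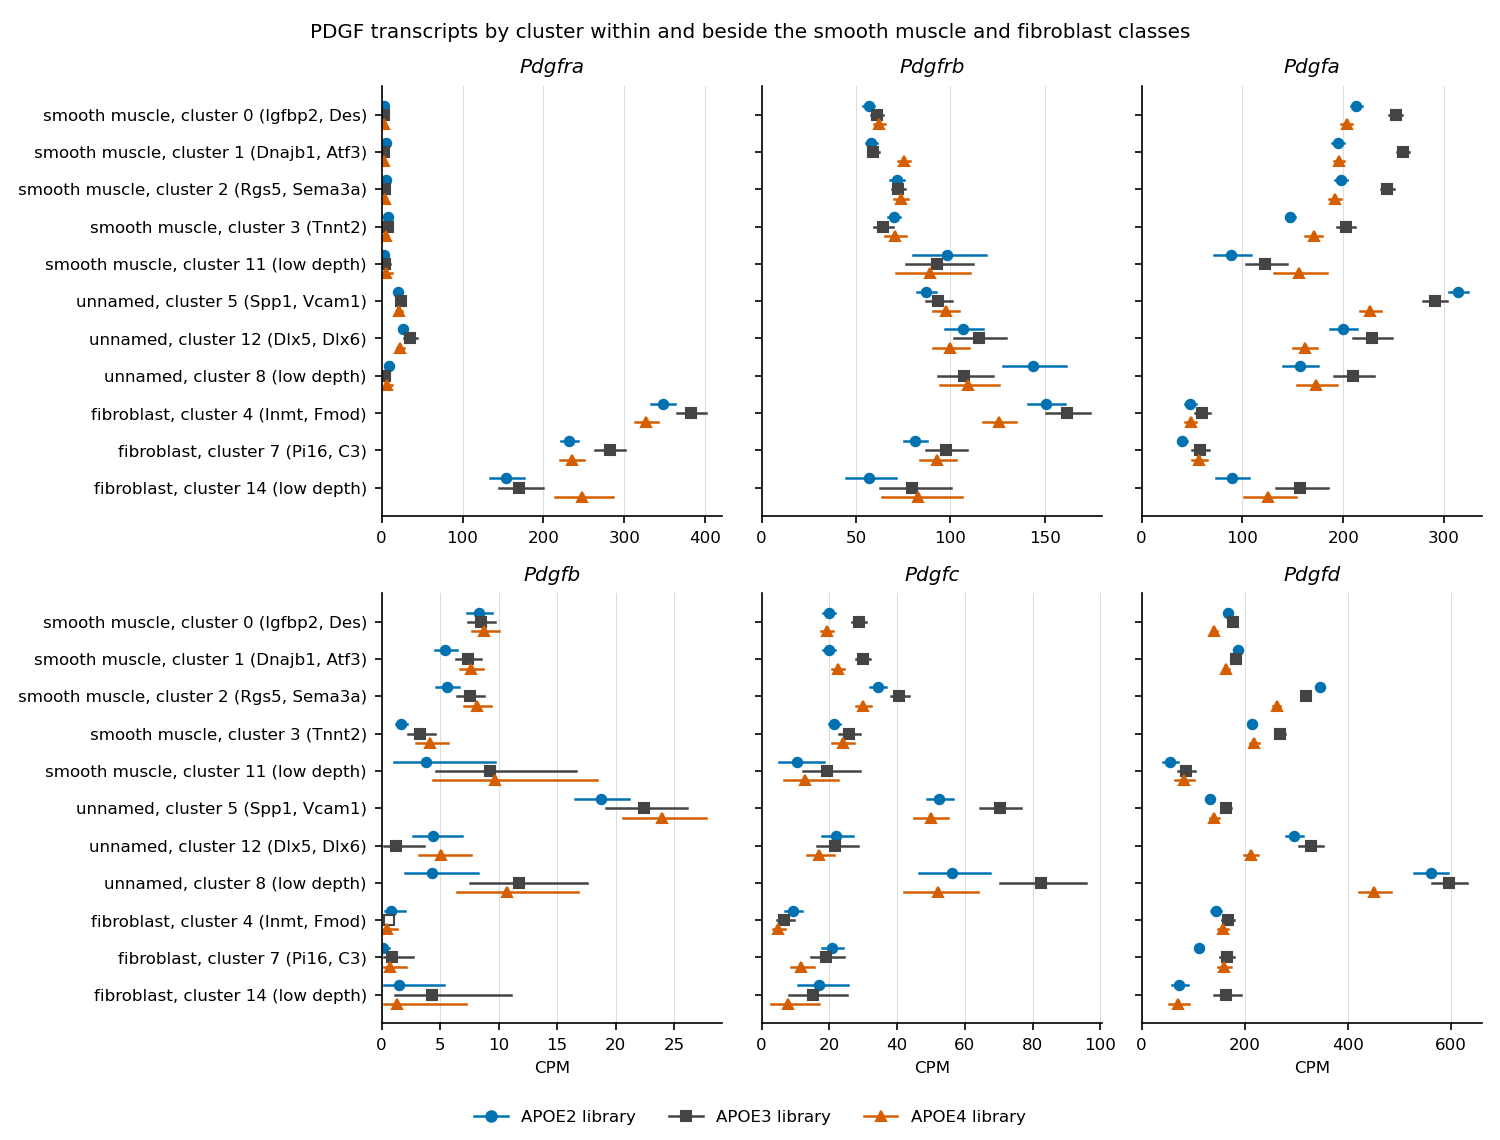
Level of each PDGF gene (CPM, linear axes) in 5 smooth muscle clusters (0, 1, 2, 3 and 11), 3 unnamed clusters (5, 12 and 8) and 3 fibroblast clusters (4, 7 and 14), with 1 marker per genotype library. Pdgfd is highest in cluster 8, Pdgfa in cluster 5 and Pdgfra in cluster 4.

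Pdgfd, the CUB-domain ligand of PDGFRβ, had the same 2 leading classes as Pdgfa. Its level was 212 CPM (210 to 214) in smooth muscle cells, 182 (170 to 195) in the endothelial class, 160 in the 206 cells of the finer clustering and 142 (139 to 146) in fibroblasts. B lymphocytes (50.2), T lymphocytes (35.9) and macrophages (34.4) were lower and overlapped. This pooled order did not hold in each library. Smooth muscle cells stood apart from the endothelial class in APOE2 only (222 against 176). In APOE3 the endothelial class ranked first (230) and overlapped smooth muscle cells (225). In APOE4 smooth muscle cells (187), the endothelial class (169) and fibroblasts (153) overlapped in turn. Smooth muscle cells held 72.6% of Pdgfd UMIs, and 86.0% of them had at least 1 before thinning, at a median depth of 16124.5 UMIs.

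Pdgfd also varied among the smooth muscle clusters. It was 308 CPM in cluster 2, led by Rgs5 and Sema3a, 226 in cluster 3, 177 in cluster 1, 162 in cluster 0, led by Igfbp2 and Des, and 74.4 in cluster 11, which is of low depth. The order was not that of Pdgfa, since the clusters with most Pdgfa (0 and 1) were not those with most Pdgfd.

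By library, smooth muscle Pdgfd was 222, 225 and 187 CPM in APOE2, APOE3 and APOE4. APOE4 stood apart as the lowest, with a log2 ratio to APOE3 of -0.27 (-0.30 to -0.24), while APOE2 and APOE3 differed by -0.02. The order varied with the region. Pdgfd was 242, 232 and 188 in cells with the descending aorta genes and 231, 226 and 188 in cells with neither set. It was 207, 157 and 164 in the few cells with both. In Hand2 cells it was 197 (193 to 202), 224 (217 to 230) and 191 (182 to 199), so that APOE2 was below APOE3 and overlapped APOE4. APOE4 was below APOE3 in each of the 5 smooth muscle clusters and in 15 of the 17 clusters with enough UMIs. Fibroblast Pdgfd was lowest in APOE2 (121, against 166 in APOE3 and 153 in APOE4), with a log2 ratio to APOE3 of -0.46 (-0.56 to -0.36).

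In macrophages, Pdgfd was close to 0 in the cells with few smooth muscle transcripts. All 10 smooth muscle markers had UMIs in the macrophages of each library, summing to 6145, 14199 and 10551 CPM in APOE2, APOE3 and APOE4. Macrophages with under 15000 CPM of smooth muscle markers (306, 82 and 111 cells) held Pdgfd at 9.11 CPM in APOE2 and 9.16 in APOE4, and at 0 in APOE3, which allows up to 3.69. All macrophages held it at 33.1 in APOE2, 25.0 in APOE3 and 45.5 in APOE4.

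Pdgfc, the ligand of PDGFRα made with a CUB domain, was highest in macrophages at 39.5 CPM (34.9 to 44.6). Smooth muscle cells at 26.0 (25.4 to 26.6) and T lymphocytes at 24.7 (18.6 to 32.1) did not differ beyond their intervals, and the endothelial class at 16.8 and fibroblasts at 12.3 (11.2 to 13.5) were lower. Macrophages thus stood at 152% of the smooth muscle level of Pdgfc, and at 13.8% of that of Acta2. Smooth muscle cells held 64.6% of Pdgfc UMIs. The pooled order did not hold in each library. Macrophages led in APOE2 (45.7), with an interval overlapping that of T lymphocytes (29.8). In APOE3 T lymphocytes (72.3), a mixed class of 42 cells there, ranked first, and macrophages (29.4) overlapped smooth muscle cells (31.7). In APOE4 macrophages (29.4) overlapped smooth muscle cells (23.6).

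Smooth muscle Pdgfc was 23.3 CPM in APOE2, 31.7 in APOE3 and 23.6 in APOE4, and APOE3 was the highest, as for Pdgfa. Against APOE3, APOE2 had a log2 ratio of -0.45 (-0.53 to -0.37) and APOE4 one of -0.43 (-0.51 to -0.35). In cells with the descending aorta genes it was 30.9, 35.4 and 24.6, and in Hand2 cells 18.7, 30.8 and 20.5. The gap between APOE2 and APOE3 was therefore wider in the Hand2 cells, a difference that was not tested.

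Fibroblast Pdgfc had another order. It was 16.0 CPM in APOE2 (248 UMIs), 12.1 in APOE3 (108 UMIs) and 7.51 in APOE4 (85 UMIs). The log2 ratio of APOE4 to APOE2 was -1.09 (-1.47 to -0.73) and that of APOE4 to APOE3 was -0.68 (-1.11 to -0.26). The ratio of APOE4 to APOE2 lay between -1.23 and -0.96 over 10 alternative settings. This was the largest fibroblast difference of the family, and it is at low levels.

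T lymphocyte Pdgfc rests on 32, 16 and 7 UMIs in APOE2, APOE3 and APOE4. Its levels were 29.8, 72.3 and 7.47 CPM, and no pair reached the 50 UMIs required for a call.

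Pdgfb had the fewest UMIs of the family, and its level differed widely between classes. Its level was 76.3 CPM (69.8 to 83.2) in macrophages, 40.7 (35.0 to 47.1) in the endothelial class, 17.5 (12.4 to 23.9) in T lymphocytes, 6.63 (6.34 to 6.94) in smooth muscle cells and 0.616 (0.386 to 0.932) in fibroblasts. The intervals of these 5 pooled values did not overlap. Macrophages ranked first in each library, but the classes did not stand apart in each. In APOE3 the intervals of macrophages (38.4), the endothelial class (35.1), T lymphocytes (18.1) and smooth muscle cells (7.29) overlapped in turn. In APOE4 the endothelial class (24.2) overlapped T lymphocytes (17.1). Pdgfb was listed at 0 in erythroid cells, where the counts allow up to 4.56. Macrophages were 2.09% of cells and held 14.2% of Pdgfb UMIs, and smooth muscle cells held 52.0%.

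In the 206 endothelial cells of the finer clustering Pdgfb was 87.9 CPM (75.4 to 102), with 101 in APOE2, 51.2 in APOE3 and 76.4 in APOE4. The interval overlaps that of macrophages and lies above that of the whole endothelial class. The part of smooth muscle and fibroblast transcripts in the lower value of the class was not tested. Cdh5, an endothelial cadherin, was 249 CPM in these cells and 112 in the class.

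Macrophage Pdgfb was 82.7 CPM in APOE2, 38.4 in APOE3 and 87.5 in APOE4. APOE3 was low, on 43 UMIs in 94 cells, against 342 and 125 UMIs in the other libraries. Against APOE3, APOE2 had a log2 ratio of 1.11 (0.65 to 1.6) and APOE4 one of 1.19 (0.68 to 1.73), and APOE4 and APOE2 differed by 0.08 (-0.23 to 0.38). Leaving out the single cell with most Pdgfb in each library gave 80.1, 33.3 and 77.9 CPM.

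The share of macrophages with a Pdgfb UMI at 1000 UMIs was 7.96% in APOE2 (27 of 339), 5.32% in APOE3 (5 of 94) and 9.68% in APOE4 (12 of 124). In fibroblasts it was 0 in each library, which allows up to 0.230%, 0.398% and 0.275%, and in smooth muscle cells it was 0.553%, 0.726% and 0.733%. The macrophage shares were above those of the other classes, but 5 cells of the APOE3 library cannot show a difference from the others.

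Transcripts of other Pdgfb sources were looked for in the macrophages. Of 10 endothelial markers, 6 to 7 had a UMI in each library, with sums of 25.6, 39.2 and 56.0 CPM. Cdh5, Pecam1, Kdr, Egfl7, Erg and Vwf had UMIs in all libraries, and Tie1 and Cldn5 were at 0 in all. Of 7 platelet markers, 4 to 5 had a UMI. Ppbp, Itga2b and Tubb1 had UMIs in each library, Gp6 had them in APOE2, and Gp1ba and Gp9 were at 0. Nearly all of the platelet marker UMIs were Pf4, a gene that macrophages also express. The part of endothelial or platelet transcripts in macrophage Pdgfb was not tested. With macrophages limited to under 15000 CPM of smooth muscle markers, Pdgfb was 92.3, 48.0 and 110 CPM in APOE2, APOE3 and APOE4. The macrophages of the APOE2 library also held Spp1 at 3026 CPM, against 9.81 in APOE3 and 11.2 in APOE4, and its part in the Pdgfb levels was not tested.

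Pdgfb, Pdgfc and Pdgfa were not shared evenly among the macrophages. Cells under the same smooth muscle limit were split by whether they held at least 2 UMIs of Lyve1, Folr2, Cd163 and F13a1, genes of resident macrophages, or of Spp1, Gpnmb, Trem2 and Fabp5, genes of lipid-laden macrophages, a split chosen after the data were seen. Pdgfb was 142 CPM in 97 cells with the second set only, 74.6 in 156 cells with the first set only, 55.4 in 182 cells with both and 143 in 64 cells with neither. Pdgfc had the reverse order, at 23.3, 38.8, 59.5 and 6.41, and Pdgfa was 127, 42.4, 44.9 and 57.7. The count of 2 UMIs was not adjusted for depth, and the median depths of the groups were 10942, 7819.5, 9862.5 and 6983.5 UMIs in the same order. The part of depth in the split was not tested.

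By library, Pdgfb in the cells with the resident set only was 93.2 CPM in APOE2 (87 cells), 40.3 in APOE3 (24 cells) and 59.4 in APOE4 (45 cells). In the cells with both sets it was 60.9, 37.8 and 54.4, and in those with neither it was 135 (32 cells), 52.5 (13 cells) and 240 (19 cells). APOE3 had the lowest value in each of these 3 groups, but most intervals overlapped. They stood apart only in the cells with neither set, for APOE3 (19.3 to 114, on 6 UMIs) and APOE4 (162 to 343, on 30 UMIs). The order of APOE2 and APOE4 was not settled in any of these groups. In the cells with the lipid-laden set only, 80 were from APOE2, 6 from APOE3 and 11 from APOE4, and their levels of 122, 115 and 308 rest on too few cells outside APOE2 to be ordered.

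**Figure D2:**
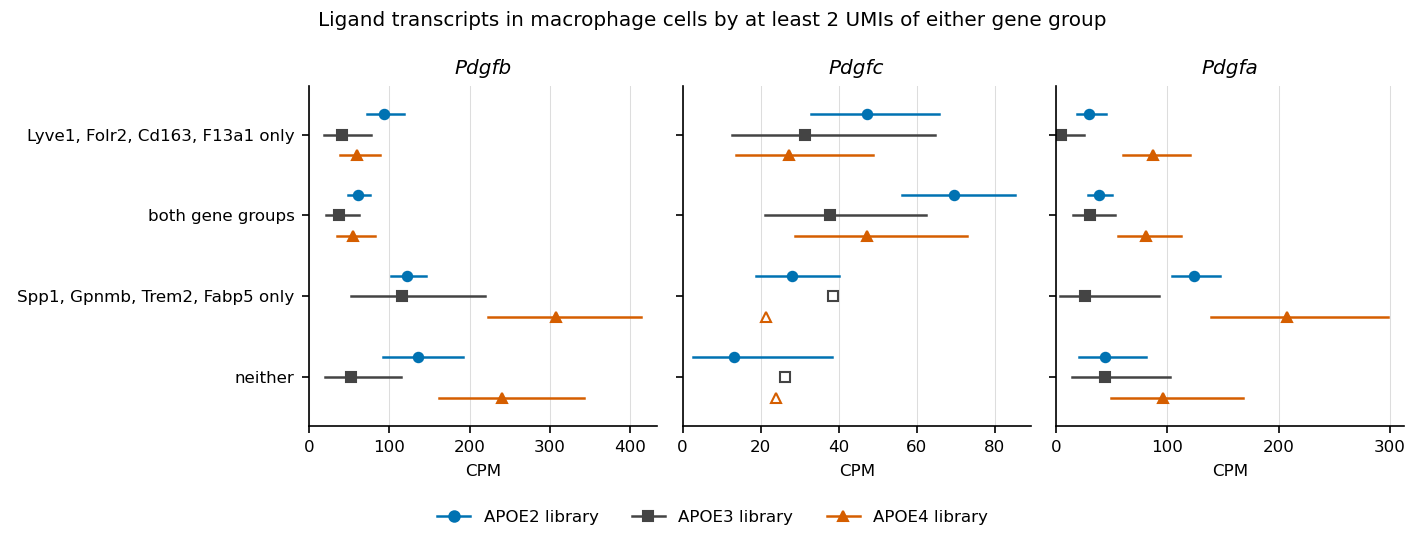
Level of Pdgfb, Pdgfc and Pdgfa (CPM) in macrophages split by UMIs of a resident and a lipid-laden marker set, with 1 marker per genotype library, bars for the 95% Poisson counting interval and open symbols for the limit that a count of 0 allows. In the pooled values, Pdgfb is lower in cells with the resident set than in the other 2 groups, and Pdgfc is higher in them.

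The other macrophage values were less certain. Macrophage Pdgfa was 76.2 CPM in APOE2, 59.8 in APOE3 and 119 in APOE4, and 63.8, 24.6 and 101 under the smooth muscle limit. APOE4 was highest in both sets of values, and the log2 ratio of APOE4 to APOE3 was 0.99 (0.58 to 1.42). Macrophage Pdgfc was 45.7, 29.4 and 29.4, on 189, 33 and 42 UMIs, with a log2 ratio of APOE2 to APOE3 of 0.63 (0.10 to 1.22). Macrophage Pdgfrb was 19.3, 10.7 and 31.5 on 80, 12 and 45 UMIs, and Pdgfra rested on 20, 1 and 16 UMIs.

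In smooth muscle cells Pdgfb was 5.12 CPM in APOE2 (535 UMIs), 7.29 in APOE3 (634 UMIs) and 7.76 in APOE4 (702 UMIs). APOE2 was the lowest, with a log2 ratio to APOE3 of -0.51 (-0.68 to -0.34), and the ratio of APOE4 to APOE2 was 0.60 (0.44 to 0.76), just past 1.5-fold. The clusters gave 8.53 in cluster 0, 7.56 in cluster 11, 7.10 in cluster 2, 6.91 in cluster 1 and 2.45 in cluster 3, the cluster with most APOE2 cells. Without cluster 3, the smooth muscle class no longer had a gene of the family past 1.5-fold between APOE4 and APOE2. In the descending aorta cells Pdgfb was 5.45, 7.33 and 8.11 and in the Hand2 cells 4.85, 6.59 and 8.23, so that APOE2 was lowest in both.

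Counted against the background of all genes, the 2 large classes had at most 1 gene of the family called in each comparison. With 5 or 6 genes, such counts cannot be told apart from the background. A gene was called when its level differed by at least 1.5-fold with at least 50 UMIs in the 2 libraries together, which with 1 library per genotype is a size and not a test. In smooth muscle cells, 0 of the 6 genes were called between APOE2 and APOE3 and 0 between APOE4 and APOE3, where 11% and 11% of all genes were, and 1 (Pdgfb, higher in APOE4) between APOE4 and APOE2, where 16.3% of all genes were called and 7.64% called higher. In fibroblasts, 0 of 5 genes were called between APOE2 and APOE3 (background 11.3%), 1 of 5 (Pdgfc, lower in APOE4) between APOE4 and APOE3 (10.3%, with 4.9% lower) and 1 of 5 (Pdgfc again) between APOE4 and APOE2 (13.9%, with 6.88% lower). Fibroblast Pdgfb had too few UMIs to enter.

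In macrophages the share called was above the background. With 5 genes and 94 APOE3 cells, these counts cannot be told apart from the background either. Against APOE3, 3 of 5 genes were called higher in APOE2 (Pdgfb, Pdgfc and Pdgfrb, against a background of 9.94% higher and 20% in either direction) and 4 of 5 higher in APOE4 (Pdgfb, Pdgfa, Pdgfrb and Pdgfd, against 11% and 18.8%). Pdgfrb reached 50 UMIs with 12 in APOE3, against 80 in APOE2 and 45 in APOE4. Its interval for APOE2 to APOE3 included 0. Between APOE4 and APOE2, 2 were higher in APOE4 (Pdgfa and Pdgfrb) and 1 lower (Pdgfc), with a background of 12.6% higher, 9.51% lower and 22.2% in either direction. With macrophages limited to under 15000 CPM of smooth muscle markers, Pdgfrb and Pdgfd had too few UMIs for a call between APOE4 and APOE3, and the log2 ratios were 2.03 for Pdgfa, 1.2 for Pdgfb and 0.07 for Pdgfc.

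In the mixed endothelial class, Pdgfra was 77.6 CPM in APOE2, 126 in APOE3 and 68.2 in APOE4, and Pdgfb was 45.6, 35.1 and 24.2, on 140, 22 and 17 UMIs. Pdgfra was called lower than in APOE3 in APOE2 (1 of 6, background 9.71% lower and 20% in either direction) and in APOE4 (1 of 4, 9.08% and 14.7%). Pdgfb and Pdgfc were called lower in APOE4 than in APOE2 (2 of 6, 14.1% and 20.9%). The Pdgfc call rested on 58 UMIs in APOE2 and 6 in APOE4, and its interval included 0. The 10 fibroblast markers summed to 9296 CPM in this class in APOE3, against 6384 in APOE2 and 8091 in APOE4. The Pdgfra intervals of APOE2 (68.1 to 88.1) and APOE4 (50.3 to 90.4) overlapped. The part of fibroblast transcripts in the Pdgfra calls was not tested. The 10 endothelial markers summed to 2190 CPM in APOE2, 1162 in APOE3 and 1118 in APOE4. The part of this difference in the Pdgfb and Pdgfc calls was not tested.

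**Figure D3:**
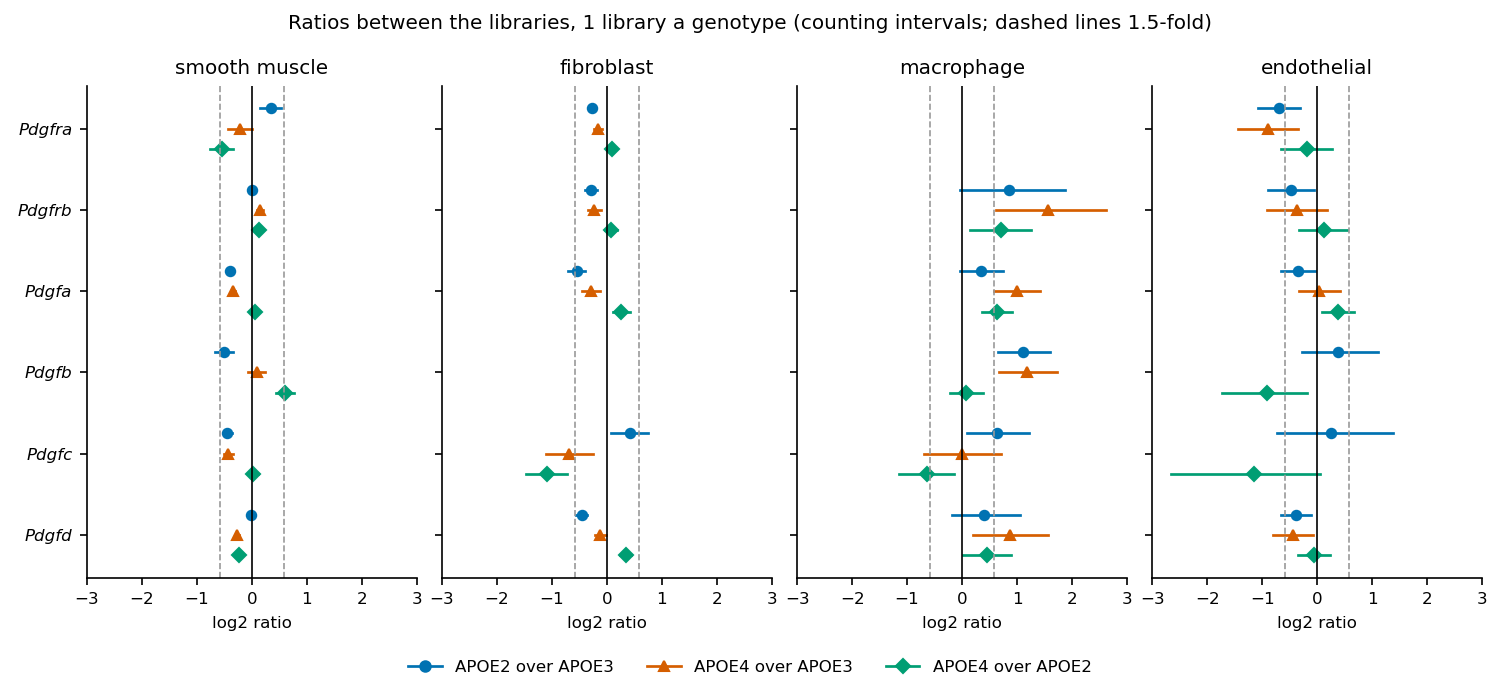
Log2 ratio of the level of each PDGF gene for the 3 pairs of libraries in 4 cell classes, with exact binomial 95% counting intervals and dashed lines at 1.5-fold. Genes with under 50 UMIs in a pair are not drawn. Smooth muscle points lie within or close to the dashed lines, whereas macrophage Pdgfb lies above them for both ratios to APOE3.

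The unnamed clusters included some of the highest levels of the family. Clusters 5 and 8 kept 9 and 10 of the 10 smooth muscle markers, but no smooth muscle marker led them. Their cells are therefore not in the smooth muscle levels above. Cluster 5, of 1304 cells and led by Spp1, Vcam1, Lcn2 and Timp1, had the most Pdgfa of the clusters drawn, at 285 CPM, with 314 in APOE2, 291 in APOE3 and 227 in APOE4. It also held Pdgfc at 56.5, Pdgfb at 21.1 and Pdgfra at 22.1, each above the smooth muscle level, and Pdgfrb at 91.6. Here APOE4 and not APOE2 was lowest for Pdgfa.

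Cluster 12, of 572 cells and with Dlx5 and Dlx6 among its leading genes, was left unnamed because it kept the smooth muscle markers and raised 3 pericyte markers, among cells with Rgs5 at 1401 CPM. It held Pdgfrb at 106 CPM, Pdgfd at 270 and Pdgfra at 27.0. Cluster 8, of 1009 cells of low depth (median 4138 UMIs, 7.55% mitochondrial UMIs), had Gm26917, Lars2, Gm15564, Cacna1c and Ryr2 among its leading genes. It held Pdgfd at 541 CPM, with 561 in APOE2, 597 in APOE3 and 452 in APOE4, and Pdgfrb at 121. Pdgfd is the longest gene of the family, at 210267 bases, and whether introns were counted is not given. The part of intron reads in the Pdgfd levels of this and other clusters was not tested. APOE4 was again the lowest for Pdgfd in both clusters, at 213 in cluster 12 against 296 in APOE2 and 329 in APOE3.

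The wider pathway was described from a list of 73 other genes, covering the related receptors and ligands, the proteases, extracellular partners, adaptors and negative regulators of the receptors, and immediate early genes. In smooth muscle cells, 1 of 68 genes with enough UMIs was higher and 3 lower in APOE2 than in APOE3, 12 of 68 were higher and 1 lower in APOE4 than in APOE3, and 14 of 69 were higher and 4 lower in APOE4 than in APOE2. The list's median log2 ratios were 0.03, 0.03 and -0.01, against 0.04, -0.08 and -0.11 over all genes. Of all genes, 11%, 11% and 16.3% were called in either direction for these pairs.

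The 20 adaptors and effectors, which carry the signal from the receptor (Grb2, Plcg1, Pik3r1 and others), had 0 calls in either direction in smooth muscle cells for both ratios to APOE3. Of all genes, 11% were called for each of these ratios. The immediate early genes are switched on within minutes by many stimuli, and they held many of the calls between APOE4 and the other libraries. Of 8, 6 were higher in APOE4 than in APOE3 in smooth muscle cells (median log2 ratio 0.87) and 7 in fibroblasts (1.08), and between APOE4 and APOE2 7 were higher in smooth muscle cells (1.03) and 6 in fibroblasts (1.11). In macrophages, 1 of 7 was higher in APOE4 than in APOE3 and 3 of 8 were higher in APOE4 than in APOE2 (0.53). Between APOE2 and APOE3, 0 were higher and 1 lower in smooth muscle cells, 2 higher and 0 lower in fibroblasts, and 0 higher and 2 lower in macrophages. Over these classes and pairs, 10.3% to 22.2% of all genes were called in either direction.

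Among single genes of the list in smooth muscle cells, Ier3 was 504 CPM in APOE4 and 178 in APOE3, a log2 ratio of 1.50. Socs3 and Errfi1, inhibitors of receptor signalling, were 190 against 88.9 and 166 against 80.4 in the same libraries, and St14 (1.35) and Myc (1.17) were the others with the largest ratios. Between APOE2 and APOE3, Thbs1, a matrix protein, was 12.3 against 4.6, and Plat, the tissue plasminogen activator that cuts latent PDGF-C, was 35.9 against 67.6, followed by Myc (-0.79), Dusp6 (-0.59) and Plau (-0.57). Between APOE4 and APOE2, the largest log2 ratios were those of Myc (1.96), Ier3 (1.63), Socs3 (1.54), Junb (1.29) and Plau (1.28).

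In fibroblasts, of 67 genes of the list, 7 were higher and 3 lower in APOE2 than in APOE3, 11 higher and 3 lower in APOE4 than in APOE3, and 9 higher and 4 lower in APOE4 than in APOE2. Thbs1 was 29.0 CPM in APOE2 and 9.38 in APOE3, the protease gene Pcsk5 was 146 against 70.0 and Vegfd was 163 against 303, with Flt3l at -0.78 and Myc at 0.74 on the log2 scale. For APOE4 to APOE3 the largest log2 ratios were those of Csf1r (1.90), Fosb (1.78), Kdr (-1.68), Ier3 (1.66) and Socs3 (1.33), and for APOE4 to APOE2 those of Kdr (-2.42), Fosb (1.89), Fos (1.68), Thbs1 (-1.37) and Socs3 (1.3). The list's medians were -0.03, -0.01 and 0.08, against 0.00, -0.10 and -0.07 over all genes. In fibroblasts 11.3%, 10.3% and 13.9% of all genes were called in either direction for the 3 pairs.

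In macrophages, 6 of 51 genes of the list were higher and 9 lower in APOE2 than in APOE3, 8 of 40 higher and 4 lower in APOE4 than in APOE3, and 14 of 51 higher and 4 lower in APOE4 than in APOE2. Of all genes, 20%, 18.8% and 22.2% were called in either direction for these pairs. The list's medians were -0.02, 0.14 and 0.24, against -0.01, 0.00 and 0.02 over all genes. Kitl, a ligand of the related receptor Kit, was 68.4 CPM in APOE2, 194 in APOE3 and 177 in APOE4. Errfi1 was 239 in APOE4 against 54.4 in APOE3 and 66.7 in APOE2. Socs3 was 193 CPM in APOE2, 77.6 in APOE3 and 172 in APOE4. The remaining log2 ratios of the largest size were, for APOE2 to APOE3, Vegfa (1.73), Pik3cb (1.46) and Plat (-1.18), for APOE4 to APOE3, Cblb (1.42), Gab1 (-1.06) and Fosb (1.04), and for APOE4 to APOE2, Vegfa (-1.59), Myc (1.49) and Thbs1 (-1.40).

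In the endothelial class, 10 of 60 genes were higher and 10 lower in APOE2 than in APOE3, 2 of 39 higher and 8 lower in APOE4 than in APOE3, and 9 of 61 higher and 14 lower in APOE4 than in APOE2. Of all genes, 20%, 14.7% and 20.9% were called in either direction for these pairs. The list's medians were -0.12, -0.05 and -0.03, against -0.01, -0.05 and -0.06 over all genes. The receptor genes Flt4 (22.5 against 3.19 CPM) and Kdr (80.2 against 17.5) were higher in APOE2 than in APOE3, as were the 10 endothelial markers together, which summed to 2190 CPM in APOE2, 1162 in APOE3 and 1118 in APOE4. Nrp2 (1.06), Vegfd (-1.81) and Spry2 (-1.26) were the others for that pair on the log2 scale. For APOE4 to APOE3 they were Vegfd (-1.39), Ier3 (1.05), Csf1 (-1.02), Cblb (-0.96) and Grb2 (-0.90), and for APOE4 to APOE2 Thbs1 (-3.75), Pcsk6 (-1.70), Kdr (-1.50), Vegfc (-1.35) and Grb2 (-1.09).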

How the data were processed

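The authors deposited raw UMI counts per gene and barcode, made with Cell Ranger (7.0.1 by the file headers) on mm10. Whether introns were counted is not given in the sources used here. Whole matrices were used, after filtering cells on 200 genes and 20% mitochondrial UMIs. Libraries were normalized with sctransform 0.4.2 and integrated by canonical correlation in Seurat 5.3.0 (R 4.3.3; 3000 features, 30 components, Louvain resolution 0.8), with the PDGF genes removed.

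A cluster was named when at least 3 of a type's markers were raised 2 times or more and seen in 10% or more of the cells. Smooth muscle clusters kept at least 8 of 10 markers at 50% or more of their mean level, with fewer than 3 raised markers of another type. A smooth muscle marker also had to be among the 10 genes that led the cluster over clusters without these markers. In a cluster of low depth, such a marker also had to be among the 10 genes leading over all other cells. Clusters 5, 6, 8 and 18 kept the markers but failed these further rules. Cluster 20 was left unnamed because 90% or more of its cells came from 1 library. Scrublet (Scanpy 1.11.5), whose own threshold marked 1, 0 and 2 cells in APOE2, APOE3 and APOE4, removed no cell, and its highest scores were left out as an alternative.

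Ratios were given for classes with at least 30 cells in each library, with exact conditional binomial 95% intervals. A count of 0 was given a limit of 3 counts. Named pathway genes were the 5 with the largest absolute log2 ratio in each class and pair. The scripts were tested on simulated data and used pandas 2.3.3, SciPy 1.17.1 and NumPy 2.4.6 in Python 3.11.15. The genes and lists were chosen with earlier results of these data known.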

Additional observations from a re-analysis of the deposited data

Results flagged for a closer look

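Cases were flagged where the interval of a gene's ratio between libraries lay above 0 in a cell class and below 0 in another. Either of these ratios also had to pass 1.5-fold. The family had 10 such cases, and in none was the difference between the classes tested. How many of all genes meet the same rule was not counted, so the number cannot be read as a trait of the family. For Pdgfa, the log2 ratio of APOE4 to APOE3 was higher in macrophages than in smooth muscle cells by 1.33 and than in fibroblasts by 1.28. For Pdgfd, the same ratio was higher in macrophages than in the endothelial class by 1.31, than in smooth muscle cells by 1.13 and than in fibroblasts by 0.98. For Pdgfrb, the ratio of APOE4 to APOE3 differed by 1.79 between macrophages, where it was positive, and fibroblasts, where it was negative.

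For Pdgfb, the ratio of APOE2 to APOE3 was positive in macrophages and negative in smooth muscle cells, a gap of 1.62, and the ratio of APOE4 to APOE2 was positive in smooth muscle cells and negative in the endothelial class, a gap of 1.52. For Pdgfc, the ratio of APOE2 to APOE3 was positive in macrophages and negative in smooth muscle cells, with a gap of 1.08. For Pdgfra, it was positive in smooth muscle cells and negative in the endothelial class, with a gap of 1.04. The macrophages also held smooth muscle markers, which summed to 6145 CPM in APOE2, 14199 in APOE3 and 10551 in APOE4, and their part in these gaps was not tested. With 1 library per genotype, no search for an outlying library was made.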

How the results depend on the processing

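No paired analysis was possible because each genotype has 1 library and no replicate numbers are shared, and for the same reason no library could be left out in turn. Ratios were recomputed with stricter filters, without the highest Scrublet scores, at Louvain resolutions 0.4 and 1.6, with cells classed by their own markers, with means over cells or clusters, with scaling by the median gene and with low-depth clusters included, and 2 limits were added after the data were seen (under 15000 CPM of smooth muscle markers, and leaving out single clusters), as were the splits of macrophages and smooth muscle cells and the finer endothelial cluster. The direction held throughout for 13 of 18 smooth muscle ratios, 11 of 15 fibroblast ratios, 13 of 15 macrophage ratios and 2 of 16 endothelial ratios. The calls that held in every setting were 0 of 1, 1 of 2 (fibroblast Pdgfc, APOE4 to APOE2), 4 of 10 and 0 of 4. The cause of each change was not tested.

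The number of family genes past 1.5-fold changed as follows. For smooth muscle APOE2 to APOE3 (0) it was 2 with own-marker classing and 1 with the mean over cells, and for APOE4 to APOE2 (1) it was 0 without high Scrublet scores, at both other resolutions and without cluster 3, and 2 with own-marker classing. For fibroblast APOE2 to APOE3 (0) it was 1 at resolution 1.6 and with the mean over cells, 2 with the mean over clusters and 3 with own-marker classing. For fibroblast APOE4 to APOE3 (1) it was 0 with median gene scaling, and for APOE4 to APOE2 (1) it was 2 with own-marker classing. For macrophage APOE2 to APOE3 (3) it was 1 at resolution 1.6 and 5 with the mean over cells, for APOE4 to APOE3 (4) it was 2 without high Scrublet scores, at resolution 1.6, with own-marker classing and under the smooth muscle limit, where 3 genes had enough UMIs, and for APOE4 to APOE2 (3) it was 1 without high Scrublet scores and with own-marker classing. For endothelial APOE2 to APOE3 (1) it was 0 at resolution 0.4, 2 at 1.6 and under the smooth muscle limit and 3 with the mean over cells, for APOE4 to APOE3 (1) it was 0 at 0.4 and 2 with the mean over cells, and for APOE4 to APOE2 (2) it was 0 without high Scrublet scores and at 0.4 and 1 at 1.6.

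Endothelial log2 ratios turned at resolution 0.4 for Pdgfra (0.18 for APOE2 to APOE3, 0.15 for APOE4 to APOE3) and, for APOE4 to APOE2, for Pdgfb (0.58) and Pdgfc (0.17), and the Pdgfb ratio was 0.025 with the mean over cells. The endothelial cluster at resolution 0.4 held 1190 cells and was led by Spp1, Vcam1, Lcn2 and Timp1, as cluster 5 was. It raised 3 endothelial markers, against 9 in the main class, so its cells are not those of that class alone. Pooled levels without high Scrublet scores were 318 for fibroblast Pdgfra, 118 for fibroblast Pdgfrb and 86.4 for macrophage Pdgfb. With own-marker classing they were 273 and 121 for fibroblast Pdgfra and Pdgfrb, 204 and 202 for smooth muscle Pdgfa and Pdgfd, and 87.7 and 45.1 for macrophage Pdgfb and Pdgfc, and macrophage Pdgfb was 89.1 under the smooth muscle limit. Shares of cells with a UMI, at 3000 UMIs and without thinning, were 54.1% and 82.9% for fibroblast Pdgfra, 26.9% and 57.2% for fibroblast Pdgfrb, 43.0% and 87.8% for smooth muscle Pdgfa, 43.7% and 86.0% for smooth muscle Pdgfd, 20.6% and 40.7% for macrophage Pdgfb, and 8.84% and 25.3% for macrophage Pdgfc. With at least 20 UMIs in place of 50, pathway genes called were 3 higher for smooth muscle APOE2 to APOE3, 7 lower for macrophage APOE4 to APOE3, and 9 higher and 16 lower for endothelial APOE4 to APOE3, where median gene scaling gave 4 higher. The 94 APOE3 macrophages and the 101 to 132 endothelial cells of APOE4 and APOE3 limit what can be read from those classes.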

Other observations

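The genes with the pattern most like each member were found by Pearson's r of log2(CPM + 1) over 19 points of class and library, from 8 classes, among 6720 genes. The points share libraries and depth, so the values are a description. Pdgfra was most like Smoc2 (0.98), Tspan11 (0.98) and Abca8b (0.97), and Pdgfrb was most like Ntn1 (0.97), Nfib (0.97) and Peg3 (0.97). Pdgfa was most like Itgb1 (0.95), Mtln (0.94) and Ilk (0.94), and Pdgfd was most like Col4a5 (0.97), Chpt1 (0.96) and Pkia (0.96). The least close were those of Pdgfb, which were Ednrb (0.85), Nrp2 (0.84) and Chp2 (0.84), and of Pdgfc, which were Slc16a7 (0.91), Manba (0.86) and Snx24 (0.85). Within the family, the highest r was that of Pdgfd and Pdgfrb (0.86). The 2 receptors (0.79), Pdgfd and Pdgfa (0.76) and Pdgfa and Pdgfrb (0.73) followed.

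Cluster 20, in which 160 of 169 cells came from the APOE2 library, held Pdgfd at 374 CPM and Pdgfc at 81.6.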
